A study of Mus musculus with 31 samples.

Results

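Histone marks were examined at 10 imprint control regions of mouse primordial germ cells, from which eggs and sperm descend. The regions were those of Peg10, Mest, Peg3, Snrpn, H19, Kcnq1ot1, Grb10, Zrsr1, Meg3 and Igf2r, each given by 1 point in the mm9 genome, and every peak of H3K27me3 or H3K9me3 reaching within 15 kb of a point was taken. The points were chr6:4697000 for Peg10, chr6:30687000 for Mest, chr7:6682000 for Peg3, chr7:67148000 for Snrpn, chr7:149767000 for H19, chr7:150481000 for Kcnq1ot1, chr11:11926000 for Grb10, chr11:22872000 for Zrsr1, chr12:110767000 for Meg3 and chr17:12935000 for Igf2r. No mm9 annotation was used, so exons and introns are not given for the peaks. This gave 70 peaks, 63 of H3K27me3 and 7 of H3K9me3, of 265274 in 18 peak lists. The cells came from wild type embryos of the background C57BL/6 x GOF18delta_PE-EGFP, which carries a fluorescent germ-cell reporter used for sorting. Each mark was mapped in 9 libraries, 3 each of E10.5 cells, female E13.5 cells and male E13.5 cells (E, embryonic day), by native chromatin immunoprecipitation from 1000 sorted cells per reaction. E10.5 cells were pooled from several embryos and have no sex in the labels, so a comparison of them with either sex at E13.5 mixes stage with sex. Peak lists carry no expression values, so the identity of the sorted cells was not checked here. Whether replicates are separate animals is not stated in the labels, so a p-value here covers the spread among libraries, and that spread may be technical.

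An imprint control region carries DNA methylation on the allele of 1 parent only, and this difference sets which parental copy of the nearby genes is transcribed. In somatic cells and in embryonic stem cells the methylated allele is bound by ZFP57 with its partner KAP1 (Trim28), which brings in the enzymes that deposit H3K9me3, whereas the unmethylated allele and silent neighbouring promoters can carry Polycomb-deposited H3K27me3. Primordial germ cells erase the methylation of the methylated allele before the imprint of their own sex is laid down, and the sampled stages fall in this period. Among the 10 regions, 8 are methylated on the maternal allele (Peg10, Mest, Peg3, Snrpn, Kcnq1ot1, Grb10, Zrsr1 and Igf2r) and 2 on the paternal allele (H19 and Meg3).

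RefSeq promoters, from 250 bases before to 50 after a transcription start in the GRCm38.p6 build, were found for 8 of the 10 genes, 15 promoters in all, with none for Peg10 or H19. They were searched on both strands for the ZFP57 hexamer TGCCGC, or GCGGCA as read on the other strand, and no matches overlapped. Of these 15 promoters 5 held it, against 11.6% of all 32851 promoters. They belonged to Mest (2 overlapping promoters with the same hexamers) and to 1 start each of Snrpn, Grb10 and Meg3. The other starts of these 4 genes held 0. The background was not matched for CpG content, and a gene start need not be the control region, so no enrichment at control regions can be read from these shares. The sequences below are those of Grb10 and Mest, which had H3K27me3 in their windows, and of Snrpn and Zrsr1, which had none; they show how unlike these promoters are in CpG content, and capitals mark the hexamer. The upstream Grb10 start holds 45 CpG and 1 hexamer in a window of 80.0% G and C, and the downstream start, 9.45 kb away, holds 9 CpG and 0 hexamers. The Mest start shown has 17 CpG and 2 hexamers, the Snrpn start 7 CpG and 1 hexamer, and the Zrsr1 start 10 CpG and 0 hexamers, beside a median of 7 CpG over all promoters. Among the starts not shown, that of Igf2r has 34 CpG and that of Peg3 has 13, and neither window had H3K27me3. Another Mest start has 8 CpG. A link between CpG content and H3K27me3 was not tested. Promoter positions are in another build than the peaks and were not placed in mm9, so a hexamer in these letters is a description of the sequence and not of a bound site.
Grb10, upstream start, chr11:12037371-12037670, minus strand: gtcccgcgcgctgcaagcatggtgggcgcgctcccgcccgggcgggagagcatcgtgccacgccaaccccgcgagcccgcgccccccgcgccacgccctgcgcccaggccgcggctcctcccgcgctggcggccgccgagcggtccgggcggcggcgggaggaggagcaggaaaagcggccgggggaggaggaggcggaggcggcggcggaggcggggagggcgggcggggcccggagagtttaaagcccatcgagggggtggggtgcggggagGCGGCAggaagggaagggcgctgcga
Grb10, downstream start, chr11:12027922-12028221, minus strand: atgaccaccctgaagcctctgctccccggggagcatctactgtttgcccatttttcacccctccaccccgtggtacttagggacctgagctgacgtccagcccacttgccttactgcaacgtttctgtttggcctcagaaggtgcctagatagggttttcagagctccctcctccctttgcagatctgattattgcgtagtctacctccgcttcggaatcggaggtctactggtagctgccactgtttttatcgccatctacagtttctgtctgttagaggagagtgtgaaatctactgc
Mest, chr6:30737800-30738099, plus strand: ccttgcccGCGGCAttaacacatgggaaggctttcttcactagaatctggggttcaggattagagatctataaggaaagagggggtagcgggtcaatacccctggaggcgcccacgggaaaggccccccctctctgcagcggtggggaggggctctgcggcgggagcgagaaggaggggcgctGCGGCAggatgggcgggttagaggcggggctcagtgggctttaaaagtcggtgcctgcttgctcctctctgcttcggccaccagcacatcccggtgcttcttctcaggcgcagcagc
Snrpn, the start at the lowest coordinates, chr7:60005150-60005449, minus strand: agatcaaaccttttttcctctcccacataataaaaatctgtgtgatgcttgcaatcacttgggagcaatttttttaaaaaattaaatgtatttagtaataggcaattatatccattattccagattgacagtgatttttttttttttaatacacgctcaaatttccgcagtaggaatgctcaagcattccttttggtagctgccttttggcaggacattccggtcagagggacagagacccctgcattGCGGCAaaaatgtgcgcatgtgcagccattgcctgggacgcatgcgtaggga
Zrsr1, chr11:22971755-22972054, plus strand: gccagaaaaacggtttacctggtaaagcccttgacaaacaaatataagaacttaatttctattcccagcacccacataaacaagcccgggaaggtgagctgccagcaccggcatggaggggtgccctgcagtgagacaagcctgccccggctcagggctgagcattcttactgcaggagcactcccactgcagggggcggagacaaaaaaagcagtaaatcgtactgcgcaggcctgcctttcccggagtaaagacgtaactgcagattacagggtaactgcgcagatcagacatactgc

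The lists give no read counts, so sequencing depth is unknown, and the length of a list sets how much can be seen in it. H3K27me3 lists held 359 to 23141 peaks and covered 0.159 to 35.5 Mb, and H3K9me3 lists held 1107 to 56632 peaks and covered 0.441 to 78.9 Mb. The 359-peak list of H3K27me3 E13.5 male replicate 2 stands apart, with 45.6% of its length also under peaks of the H3K9me3 library that has its group and replicate number (0.0426 to 5.52% for the other 8 pairs), and it held no peak at any control region. In the longest H3K27me3 list, that of E10.5 replicate 3, the names of the peaks point to an H3K9me3 input as control. The sample titles name the input of E10.5 replicate 3 without a mark, whereas the inputs of E10.5 replicates 1 and 2 are named by mark. As a background, the genome was cut into 88052 windows of 30 kb, among them the 10 control-region windows. The background windows were not matched to the control regions for gene starts or CpG content. H3K27me3 peaks lay in 0.365 to 10.9% of all windows per list and H3K9me3 peaks in 0.963 to 28.6%.

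H3K9me3 peaks were few at the control regions, and over all lists their share of windows was near the background. No H3K9me3 peak of any of the 9 lists covered a control point, and the closest of all, at Peg10, began 8.86 kb away. The median window midpoint lay 40.6 to 1789 kb from H3K9me3 across lists, so a point without the mark is common. The mark appeared in 3 of the 10 windows, those of Peg10, Snrpn and Meg3, with 3, 1 and 3 peaks, while 34.2% of all windows had an H3K9me3 peak in at least 1 list. All 3 E13.5 female lists had 0 peaks at the 10 regions, although 8.44, 12.6 and 5.54% of all windows held a peak in replicates 1, 2 and 3. At E10.5 replicates 1 and 3 also had 0, where 2.91 and 0.963% of windows held a peak, and replicate 2 had 1 region where 17.8% did. In male cells 3, 1 and 1 regions were held, where 28.6, 23 and 18.2% of all windows were. Held by all libraries of a group were 0 regions at E10.5, 0 in female cells and 1 (Peg10) in male cells, against 0.299, 2.79 and 14.6% of all windows. At the control regions, H3K9me3 thus made up 0 to 45.7 ppm (covered bases per megabase of list) of the length of a list, below the 113.6 ppm of all window length that these 10 windows make up.

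**Figure D1:**
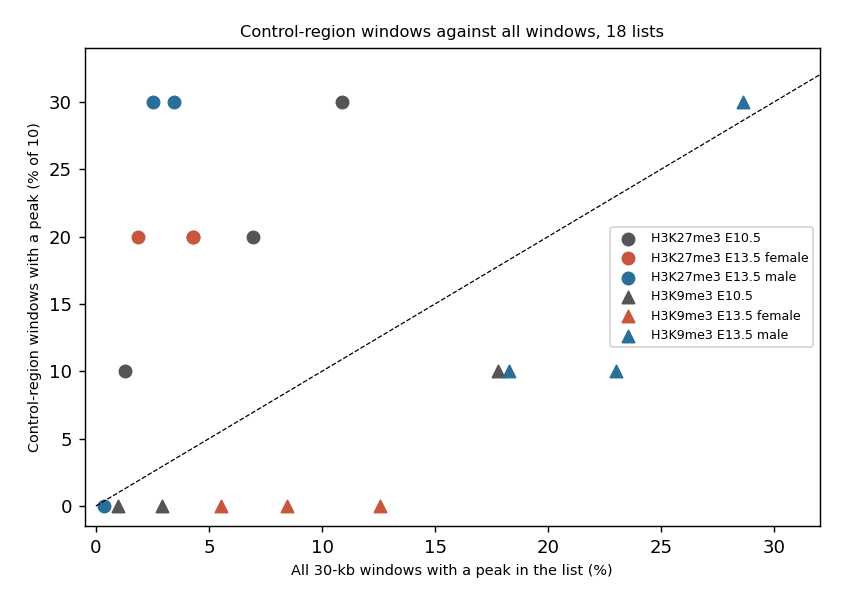
Percent of the 10 control-region windows with a peak (vertical axis) against percent of all 30-kb windows with a peak (horizontal axis), 1 point per list, circles for H3K27me3 and triangles for H3K9me3, grey E10.5, red E13.5 female (replicates 2 and 3 of H3K27me3 coincide) and blue E13.5 male; the dashed line marks equal shares. Of the 9 H3K27me3 lists 8 lie above the line and the 359-peak list lies at 0; of the 9 H3K9me3 lists 8 lie below it and E13.5 male replicate 1 just above.

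The 1 H3K9me3 site that recurred was in the Peg10 window, in male cells. Peg10 is a retrotransposon-derived gene needed for placental development, and its control region lies where it and Sgce, the gene of epsilon-sarcoglycan, start head to head. E13.5 male replicates 1, 2 and 3 had 1.06, 0.947 and 0.806 kb of H3K9me3 there, while all 3 E10.5 and all 3 female libraries had 0 kb, so that the groups did not overlap. The 3 male peaks shared chr6:4706059-4706817, from 9.06 to 9.82 kb above the point, on the side toward higher coordinates and away from Sgce in the RefSeq gene order. Within their own lists they ranked at the 90.8, 19.5 and 51.9 percentile of the peak scores, so the site was not among the strongest of 2 of the 3 lists.

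A window entered the limma fit, on log2 of covered kb plus 0.5, with a peak in at least 3 of 9 libraries, and Peg10 entered only through the 3 male libraries in which it was high. The adjusted p-values below therefore rest on that selection and are given as a description. The difference was 1.52 ± 0.35 for male minus E10.5 (SE, limma adjusted p = 0.0482) and the same 1.52 ± 0.35 for male minus female cells (adjusted p = 0.0444). With a peak in at least 1 library needed instead (30089 windows fitted), the limma adjusted p was 0.0129 and 0.0131. Peg10 entered that fit through the same male libraries. Since the other libraries were all at 0 kb, the size of this difference depends on the 0.5 kb added. Of all tested windows 4.57% were called in male against E10.5 cells and 8.44% in male against female cells, all of them higher in male cells (as ppm of list length, 0 windows against E10.5 and 50 against female cells, 29 higher and 21 lower), and the medians over all tested windows were 1.36 and 1.49. The difference at Peg10 thus lay close to that of the median tested window. A peak in all male and in no E10.5 library was found in 2.88% of all windows, and in all male and no female library in 3.79%. Male lists covered 25.7 to 78.9 Mb, against 0.441 to 46.6 Mb at E10.5 and 4.28 to 12.2 Mb in female cells, and the part of list length in the difference cannot be told apart from that of the group. Expressed as ppm of each list's length, the Peg10 difference was 0.28 ± 0.09 (SE) against either group and was not called (limma adjusted p = 0.217 and 0.1797). That fit added 100 ppm before the log, while male replicates 1, 2 and 3 had 13.4, 20.2 and 31.4 ppm. The added constant thus limits the size of this difference, which does not show what list length contributes. With 1 library left out, the call against E10.5 was lost without E10.5 replicate 1 or 3 (limma adjusted p = 0.228 and 0.208) and without male replicate 1 or 2 (0.0545 and 0.0795), and that against female cells without female replicate 1, 2 or 3 (0.147, 0.105 and 0.171) and without male replicate 1 or 2 (0.0565 and 0.0798).

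The remaining H3K9me3 peaks did not recur. In the window of Snrpn, which encodes a small nuclear ribonucleoprotein and whose promoter is the imprinting centre of its domain, male replicate 1 had 1 peak of 1.37 kb at 11.9 to 13.3 kb above the point, and the other 8 lists had none. Outside that window, E10.5 replicate 2, female replicate 3 and male replicate 3 each had their nearest H3K9me3 peak at 47.3 kb above the Snrpn point. In the window of Meg3, a long noncoding RNA controlled from the region between it and Dlk1, E10.5 replicate 2 had 2.13 kb in 2 peaks at 9.39 to 13.502 kb above the point and male replicate 1 had 0.192 kb in 1 peak at 14.4 to 14.6 kb. These Meg3 peaks shared no base, and they ranked at the 13.1 to 29.8 percentile of their lists.

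H3K27me3 was concentrated at Peg10 and Grb10. These windows held 60 of the 63 H3K27me3 peaks, 35 at Peg10 in 7 libraries and 25 at Grb10 in 8 libraries, and Mest held 2 and Kcnq1ot1 1. A peak in at least 1 list was thus found in 4 of the 10 windows and in 14% of all windows. Held by all libraries of a group were 1 region at E10.5 (Grb10), 2 in female cells (Peg10 and Grb10) and 0 in male cells, against 1.08, 1.15 and 0.243% of all windows. Without the 359-peak list, both remaining male libraries held 3 regions (Peg10, Grb10 and Mest), against 1.66% of all windows. The 10 windows made up 383 to 3601 ppm of the H3K27me3 length in the other 8 lists, above the 113.6 ppm of all window length, and nearly all of it came from the windows of Peg10 and Grb10.

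**Figure D2:**
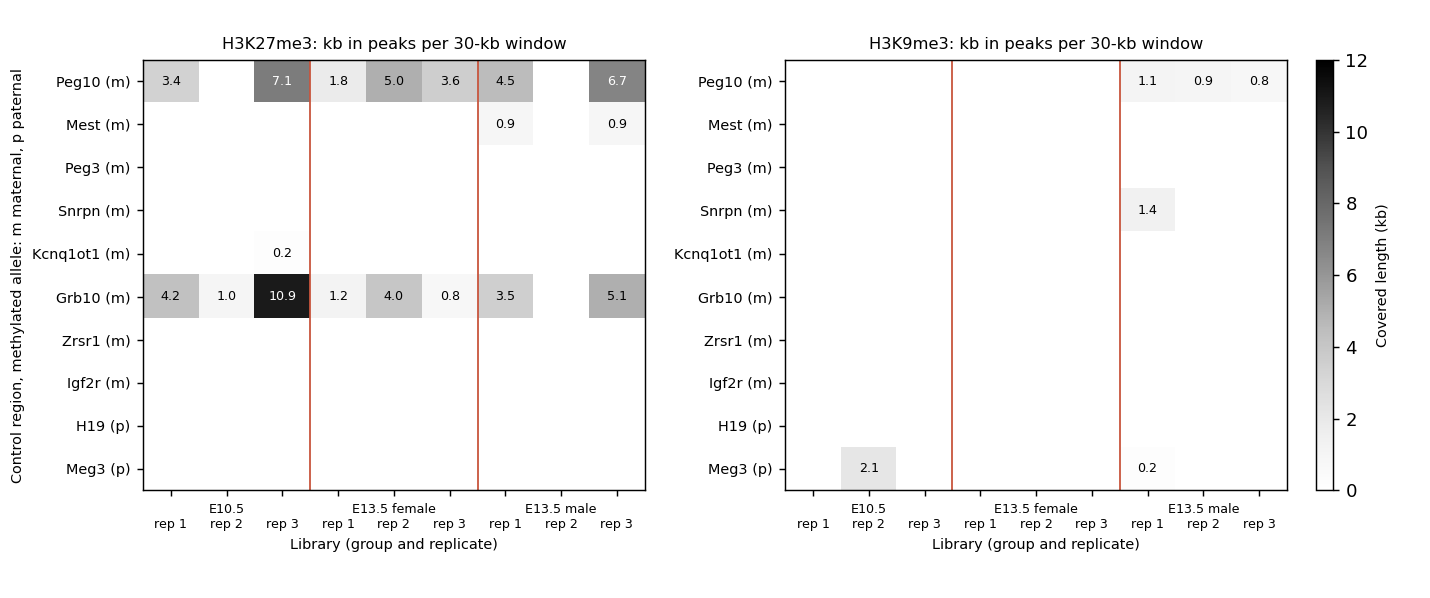
Covered length in kb of each 30-kb control-region window (rows) in each library (columns), H3K27me3 on the left and H3K9me3 on the right, red lines between groups; printed numbers are kb and blank cells are 0. Peg10 and Grb10 fill nearly all libraries of H3K27me3, and Peg10 in the 3 male libraries is the only row of H3K9me3 with more than 2 filled cells.

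At Peg10, H3K27me3 covered 3.37, 0 and 7.10 kb in E10.5 replicates 1, 2 and 3, 1.78, 5.02 and 3.60 kb in female replicates 1, 2 and 3, and 4.52, 0 and 6.73 kb in male replicates 1, 2 and 3. The groups overlapped fully, and the 2 libraries at 0 have lists of 2.08 and 0.159 Mb, although female replicate 1 held Peg10 with a list of 1.56 Mb. Means were 3.49 ± 3.55 kb at E10.5, 3.47 ± 1.62 kb in female and 3.75 ± 3.43 kb in male cells (SD, n = 3 each). Of the 35 peaks 29 lay wholly below the point, on the Sgce side, 2 covered the point and 4 lay above it. Stretches shared by the most libraries, 5 of 9, were chr6:4685844-4685934, at -11.16 to -11.07 kb (negative distances lie below the point), and chr6:4691766-4691861, at -5.23 to -5.14 kb. The 2 peaks over the point were those of female replicate 2, which ended 0.019 kb beyond it, and of male replicate 3, which ran from -0.787 to 0.933 kb. In male replicate 1 a peak ended at -0.059 kb, and no E10.5 peak came nearer than 3.44 kb to the point. E10.5 libraries had 0 kb above the point, whereas male replicates 1 and 3 had 1.68 and 1.63 kb and female replicates 2 and 3 had 0.019 and 0.412 kb.

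With limma, H3K27me3 at Peg10 did not pass the threshold in any of the 3 comparisons. Differences on the log2 scale were 0.60 ± 1.18 for female minus E10.5 (SE, adjusted p = 0.751), 0.10 ± 1.18 for male minus E10.5 (adjusted p = 0.952) and -0.50 ± 1.18 for male minus female cells (adjusted p = 1). Called in the same comparisons were 0.0226, 1.17 and 0% of the 4431 tested windows, the last with 53 windows at an unadjusted p under 0.05. Medians over all tested windows were -1.15, -1.497 and -0.27, below the Peg10 values for both sexes against E10.5. Relative to list length, female and E10.5 libraries did not overlap at Peg10, and every female value lay above every E10.5 value in 6.77% of the 4431 tested windows as well. The Peg10 window took 169, 0 and 199.8 ppm of the list in E10.5 replicates 1, 2 and 3, 1144, 961 and 873 ppm in female replicates, and 1827, 0 and 1688 ppm in male replicates. The lowest female value exceeded the highest E10.5 value, and male replicate 2 was again the exception among male lists. On this scale the difference was 2.44 ± 0.99 for female minus E10.5 (SE, limma adjusted p = 0.470) and 1.80 ± 0.99 for male minus E10.5 (adjusted p = 0.525), and neither passed. The direction against E10.5 in kb turned without E10.5 replicate 2, to -0.54 for female and -1.04 for male cells (limma adjusted p = 0.674 and 0.398).

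**Figure D3:**
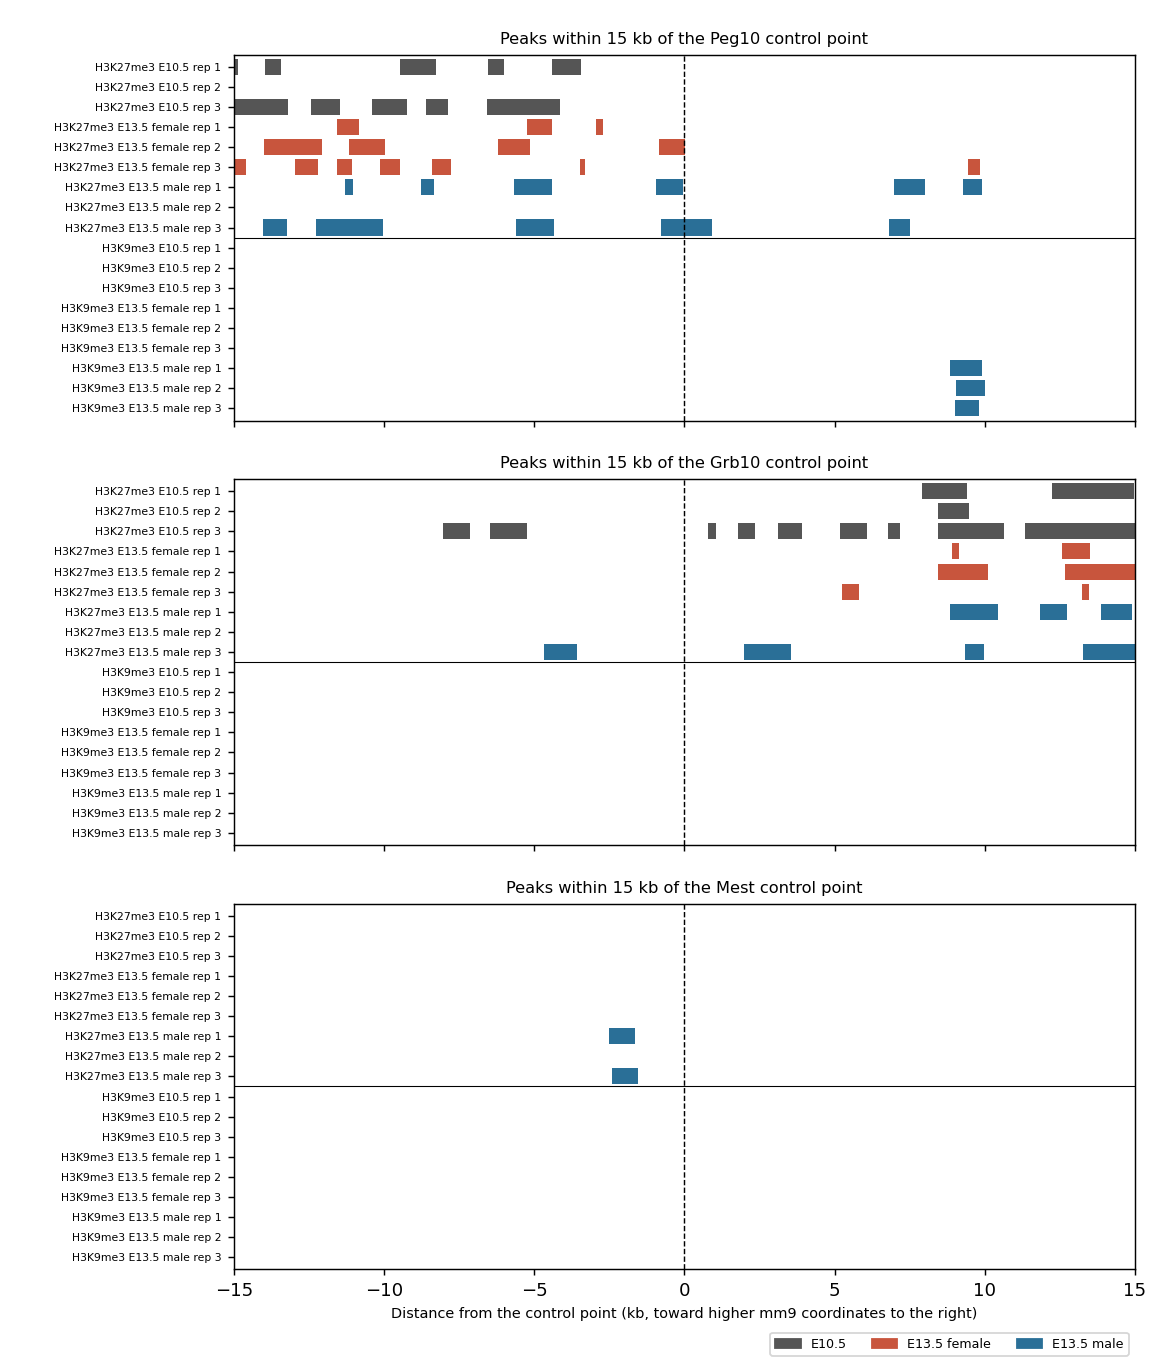
Position of every peak within 15 kb of the Peg10, Grb10 and Mest control points (horizontal axis, distance in kb, dashed line at the point), 1 row per library with H3K27me3 above the solid line and H3K9me3 below it, grey E10.5, red E13.5 female and blue E13.5 male. H3K27me3 lies mostly below the Peg10 point and mostly above the Grb10 point, and the H3K9me3 peaks of the 3 male libraries stack near 9 kb above the Peg10 point.

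Grb10, an adaptor protein that restrains signalling from the insulin and insulin-like growth factor receptors, had the most recurrent H3K27me3. Its window covered 4.24, 1.01 and 10.9 kb in E10.5 replicates 1, 2 and 3, 1.16, 3.99 and 0.813 kb in female replicates, and 3.52, 0 and 5.06 kb in male replicates. A peak was present in 8 of 9 libraries, as in 0.429% of all windows that had one in at least 8, and the missing library is the 359-peak list. Means were 5.38 ± 5.04 kb at E10.5, 1.99 ± 1.74 kb in female and 2.86 ± 2.59 kb in male cells (SD, n = 3 each), and the ranges overlapped. Of the 25 peaks 22 lay above the point and 3 below, on a gene transcribed toward lower coordinates. Shared by 6 of 9 libraries were chr11:11934909-11935151, 8.91 to 9.15 kb above the point, chr11:11935342-11935405 at 9.34 to 9.41 kb, and chr11:11939267-11939478 at 13.27 to 13.478 kb. The control point itself was free of H3K27me3, with no peak between -3.58 and 0.768 kb in any library. E10.5 replicate 3, which covers 35.5 Mb in all, had 9 of the 25 peaks, including the widest at 5530 bp, which runs past the edge of the window. The known layout of the locus has a control region at the start used in brain and a separate upstream start used elsewhere; whether the recurrent stretch holds that upstream start was not tested, since the starts are given in another build.

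None of the 3 comparisons of H3K27me3 at Grb10 passed the threshold. Limma gave -1.02 ± 1.04 for female minus E10.5 (SE, adjusted p = 0.527), -0.96 ± 1.04 for male minus E10.5 (adjusted p = 0.478) and 0.07 ± 1.04 for male minus female cells (adjusted p = 1). As ppm of list length the signs turned, to 0.51, 0.50 and -0.02 (SE 0.94 each, limma adjusted p = 0.939, 0.837 and 1), so no direction can be given for this window. Grb10 took 213.5, 484 and 306 ppm of the list in E10.5 replicates 1, 2 and 3, 741, 764 and 197 ppm in female replicates and 1423, 0 and 1269 ppm in male replicates. Male replicates 1 and 3 were thus the highest of the 9 by this measure, and male replicate 2 the lowest.

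**Figure D4:**
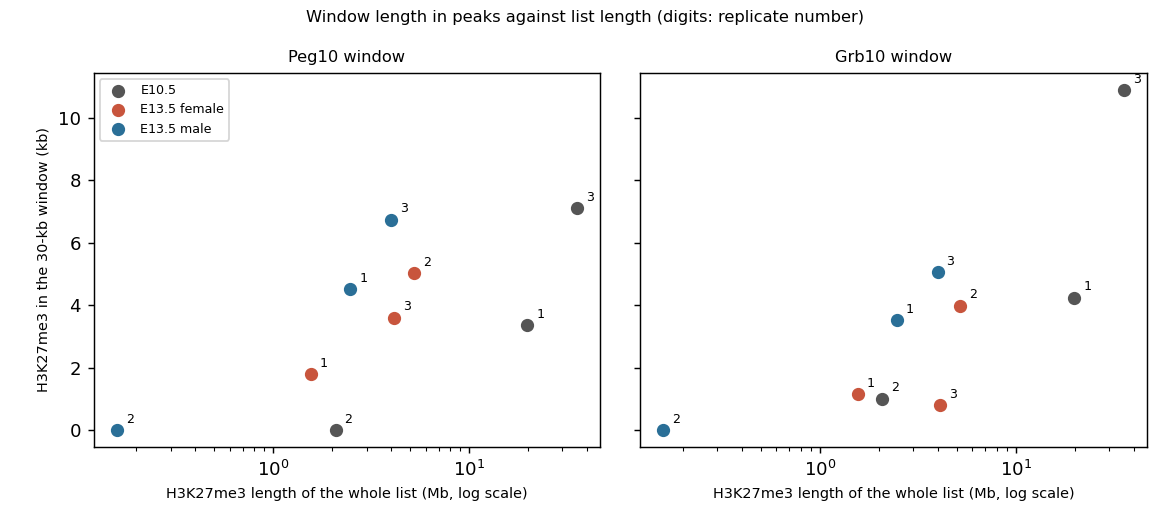
H3K27me3 length in the Peg10 and Grb10 windows (vertical axis, kb) against the H3K27me3 length of the whole list (horizontal axis, Mb, log scale), 1 point per library labelled by its replicate number, grey E10.5, red E13.5 female and blue E13.5 male. The 2 longest lists, E10.5 replicates 1 and 3, hold 19.9 and 35.5 Mb, and male replicates 1 and 3 reach 3.52 to 6.73 kb in both windows with lists of 2.47 and 3.99 Mb.

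Mest, a paternally expressed gene of the hydrolase fold family, had H3K27me3 in male cells. Male replicates 1, 2 and 3 had 0.869, 0 and 0.877 kb, and the 3 E10.5 and 3 female libraries had 0 kb. Of all 88052 windows, 97 had a peak in male replicates 1 and 3 and in no E10.5 library. A peak in these male replicates and in no female library was found in 152. Both peaks lay just below the control point and shared chr6:30684581-30685364, at -2.42 to -1.64 kb, and ranked at the 41.9 and 55.9 percentile of their lists. No test was made in the main fit, since only 2 of 9 libraries had a peak. When a peak in 1 library was enough, the window was higher in male cells by 0.97 ± 0.38 (SE) against either group. It passed in neither comparison (limma adjusted p = 0.255 and 1 against E10.5 and female cells). Mest entered that fit only through male libraries in which it was high. Kcnq1ot1, the long noncoding RNA that silences its neighbours on the paternal chromosome, had 1 H3K27me3 peak of 0.206 kb, at -7.53 to -7.33 kb, in E10.5 replicate 3 alone.

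Both marks met at 1 place. Around 9 kb above the Peg10 point, the H3K27me3 peak of male replicate 1 at 9.27 to 9.92 kb shared 553 to 653 bp with the H3K9me3 peaks of the 3 male libraries, and that of female replicate 3 at 9.45 to 9.86 kb shared 372 to 412 bp with them, although no female library had H3K9me3 there. Genome-wide, 4.53% of the H3K27me3 length of male replicate 1 and 0.681% of that of female replicate 3 was also under peaks of their like-numbered H3K9me3 libraries. Cross-reaction of the antibodies and cells that differ from each other were not tested.

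Peg3, H19, Zrsr1 and Igf2r had no peak of either mark in any of the 18 lists. These are 4 of the 10 windows, while 55.2% of all windows were empty, so an empty window is common. Distances to the nearest peak are likewise set by the length of a list. The median window midpoint lay 190 to 3309 kb from H3K27me3 and 40.6 to 1789 kb from H3K9me3 across lists, and the median of the 10 control points 72.5 to 2353 kb and 56.9 to 545 kb. In the 3 male H3K9me3 lists the control points' median was the larger, and in the other lists of both marks it was the smaller. Peg3, a zinc-finger protein gene, had its nearest H3K9me3 peak 89.99 to 111 kb away in the 9 lists and its nearest H3K27me3 peak at 51.6 kb. H19, a noncoding RNA that shares enhancers with Igf2, had its nearest H3K9me3 peak at 87.8 kb and H3K27me3 peak at 73.6 kb. Zrsr1, a splicing-factor-like gene inside an intron of Commd1, had H3K9me3 no nearer than 64.1 kb and H3K27me3 no nearer than 559 kb. Igf2r encodes the receptor that clears insulin-like growth factor 2, and its control region drives the antisense RNA Airn; H3K9me3 came to within 28.4 kb, in female replicate 2, and H3K27me3 to within 233 kb. Grb10 and Mest, which carried H3K27me3, had no H3K9me3 nearer than 16.9 and 191 kb. The windows of H19 and Meg3, the paternally methylated regions, had no H3K27me3 peak, as had 86.0% of all windows.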

How the data were processed

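The 18 lists are broad peaks of 1 ChIP library each, so calling was per sample; the files' peak names give the input used as control, and the 13 inputs are not used here. The submitters' processing notes give the build mm9 and list MACS2 2.1.0, deepTools 3.3.0, SAMtools, Picard, BWA 0.7.5a and CASAVA 1.8.4, without roles; for peak thresholds nothing is stated. The deposited scores are the authors' own values of unknown scale (column 9 exceeds column 8 in 100% of peaks) and only rank peaks within a list. Depth is unknown and the length of a list limits the precision.

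Peaks that overlapped were joined, after 19 mitochondrial ones were dropped. Control points were given with the list of regions; the members and lists were chosen with earlier results of these data known. Covered kb of 30-kb windows, the control-region windows plus a tiling up to the last peak end of each chromosome, was tested with limma 3.58.1 (R 4.3.3) on log2(kb + 0.5), with 1 fit for each mark over its 9 libraries and Benjamini-Hochberg adjustment over all windows with a peak in at least 3 libraries (4431 for H3K27me3, 17787 for H3K9me3) and a threshold of 0.05. Of the control regions 2 (H3K27me3) and 1 (H3K9me3) passed this filter. All 10 are named. The fit was also run on simulated data with normally distributed noise. These lacked the many empty windows and unlike list lengths of the real data, so they do not show how the fit behaves here. Alternatives were ppm of list length (100 ppm added before the log), other pseudocounts, filters, peak sets and window sizes, a replicate block, and each library left out. Same-numbered libraries deviated together, with correlations of 0.127, 0.302 and 0.249, for H3K9me3 in female and E10.5 cells. No window was called there with or without the block. For H3K27me3 in male and E10.5 cells the correlations were also all positive, at 0.0783, 0.216 and 0.163. Male replicate 3 and E10.5 replicate 1 reached 0.179 there, though numbered differently. The block took the 52 windows called in that comparison to 0. No mm9 annotation was used; promoters and gene order are RefSeq's for GRCm38.p6.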

Additional observations from a re-analysis of the deposited data

How the results depend on the processing

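The values below are counts over all windows tested or held, except where a control region is named, and none of them was tested for its cause. Held by all libraries of a group at the control regions, in the order H3K27me3 E10.5, H3K27me3 female and H3K9me3 male, were 1, 2 and 1 regions. They became 0, 1 and 0 with 5 kb to each side, 0, 1 and 0 with peaks at or above the list median score, and 0, 0 and 0 with as many top-score peaks per list as the shortest holds (359 and 1107). With 1 library left out, H3K27me3 E10.5 ranged from 1 to 2, female was 2 throughout, male ranged from 0 to 3, and H3K9me3 male was 1.

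For windows held apart by H3K27me3, female and E10.5 cells gave 148 (6 with top-score peaks, 157 to 2102 with 1 library left out), male and E10.5 cells 203 (19, and 241 to 2943), and male and female cells 138 (6, 77 with at least 500 bp in peaks, and 191 to 673). For H3K9me3 the counts were 137 (60 with top-score peaks, 43 with 500 bp, and 206 to 1435), 2538 (about 1.1e+02, 1506, and 2581 to 10167) and 3340 (172 with top-score peaks, and 3662 to 6675).

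Windows called by limma for H3K27me3 were 1 for female minus E10.5. This count became 0 as ppm, 0 with 0.1 kb added and 46 with a peak in at least 1 library needed. It was 32 with peaks above the median score, 2 with top-score peaks and 0 to 2712 with 1 library left out. Male minus E10.5 gave 52, then 0 as ppm, 0 with 0.1 kb added, 83 above the median score, 4 with top-score peaks and 0 to 3191 with 1 library left out. Male minus female cells gave 0, and 2 with top-score peaks. For H3K9me3, female minus E10.5 gave 0 (98 at an unadjusted p under 0.05), 28 as ppm, 28 with top-score peaks and 0 to 8 with 1 library left out. Male minus E10.5 gave 813, then 0 as ppm, 1677 with 0.1 kb added and 1403 with a peak in at least 1 library needed. It gave 402 above the median score, 15 with top-score peaks and 0 to 10710 with 1 library left out. Male minus female gave 1501, then 50 as ppm (29 higher and 21 lower), 2801 with 0.1 kb added, 364 above the median score, 110 with top-score peaks (89 higher and 21 lower) and 0 to 5349.

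With the replicate block the H3K27me3 counts against E10.5 were 0 and 0, those of H3K9me3 0 for male minus E10.5 and 2908 for male minus female cells. In the comparisons not named with the processing, correlations of same-numbered libraries ran from -0.251 to 0.123, with both signs within each comparison. Under the block the adjusted p of Peg10 H3K9me3 was 0.0758 against E10.5 and 0.0496 against female cells.

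Signs turned for H3K27me3 at Peg10 and Grb10, of which none passed the threshold. Grb10 turned as ppm to 0.51, 0.50 and -0.0165 (female minus E10.5, male minus E10.5, male minus female), to -0.44 for male minus female with 0.1 kb added, to 0.13 for male minus E10.5 without male replicate 2, and for male minus female to -0.12 and -0.29 without female replicates 1 and 3 and -0.36 and -0.59 without male replicates 1 and 3. Peg10 turned to -0.54 and -1.04 (both sexes against E10.5) without E10.5 replicate 2, to -0.37 and -0.63 for male minus E10.5 without male replicates 1 and 3, and to 0.69 for male minus female without male replicate 2. With 1 library left out, Peg10 ranged from -0.54 to 1.42, -1.04 to 1.30 and -1.23 to 0.69, and Grb10 from -1.78 to -0.32, -1.72 to 0.13 and -0.59 to 1.15, in the same order of comparisons.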
